A study of Homo sapiens with 6 samples.

Results

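The genes described here are 53 genes of mitosis and chromosome segregation, taken by name from a list of cyclins, mitotic kinases, spindle checkpoint proteins, kinesins, kinetochore and condensin subunits and their regulators. All 53 symbols were found among the 20347 in the expression file. Transcripts were sequenced from PaTu8988t, an established human cell line of pancreatic ductal adenocarcinoma, with 3 libraries of control cells set against 3 of *SAMD1* knockout (KO) cells, 6 libraries in all. Both kinds of cell were made with the Lenti-CRISPR V2 plasmid, which held an unspecific control sequence for the control cells and guides against *SAMD1* for the KO cells, and clones were selected with puromycin. Whether the control replicates are 1 clone, several or a pool is not given in the sources used here. The KO libraries are 3 independent clones with 1 library each, so no clone has a replicate of its own, and a feature of 1 clone cannot be told apart from a feature of its library. SAMD1 is a chromatin protein that binds unmethylated CpG islands, the class of promoter at which most genes of the cell cycle start.

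Mitosis genes are transcribed in a wave that begins late in S phase and peaks in G2 and M phase. The wave is driven by the MuvB complex together with B-MYB and FOXM1, which act through the cell cycle homology region (CHR) of the target promoters. In resting cells it is silenced by the DREAM complex. Many of the target promoters also hold CCAAT boxes. Because the transcripts are present mainly in dividing cells, they are widely read as a proliferation signature of a tumour. In RNA from a whole culture, a smaller share of cells in mitosis and less transcript in each cell cannot be told apart.

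*SAMD1* itself was measured first as a check of the labels. Its normalized counts (reads divided by the size factor of the library) were 2231, 2382 and 2299 in the control libraries and 874, 1082 and 825 in KO clones 1 to 3. The groups did not overlap, and the transcript fell in the KO clones (log2 fold change -1.32 ± 0.10 SE, limma adjusted p = 0.000724). Recovered library totals ran from 35589477 to 45172216 reads. The epithelial genes *KRT8* and *KRT18* were abundant in every library, whereas *CDH1* did not exceed 45.8 normalized counts and *KRT19* was listed at 0 throughout. The fibroblast markers *DCN* and *LUM* and the leukocyte marker *CD3E* were listed at 0 in every library. The 7 fibroblast markers summed to between 167 and 170.2 normalized counts in the control libraries and between 164 and 458 in the KO clones, mostly from *COL3A1*. The 5 leukocyte markers summed to between 359 and 383 in the control libraries and between 252 and 334 in the clones, mostly from *CD68*, and the 4 endothelial markers summed to at most 85.9 in any library. A part of these markers in the differences reported for the mitosis genes was not tested.

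All 53 mitosis genes passed the filter on low counts, and none was scarce, since every library held at least 222 reads for each. Mean normalized counts over the 6 libraries ran from 263 for *SKA1*, which couples kinetochores to microtubules, to 39613 for *TOP2A*, the topoisomerase that untangles sister chromatids. Levels can be compared between genes only per length of transcript. As RPKM, that is reads scaled by the length of the canonical transcript and by the library total, the highest control levels were those of *CCNB1*, which encodes cyclin B1 (302 ± 9.72, SD, n = 3), the ubiquitin conjugase gene *UBE2C* (278 ± 10.9), the securin gene *PTTG1* (229 ± 0.601) and the anaphase activator *CDC20* (208 ± 4.03). The differences between neighbours in this order were larger than the SDs of both. The lowest levels per length were those of *SKA1* (2.13 ± 0.0997) and *PRC1* (3.55 ± 0.288), a bundler of the central spindle. For *PRC1*, 57.6% of the annotated exon bases are shared on the same strand with another annotated gene and 34.3% lie opposite an antisense transcript, so its count is uncertain. The exon bases of *NCAPG*, a condensin subunit, lie to 33.7% opposite *LCORL*, and those of *SMC4* lie to 22% opposite other genes. For the other members at most 15.9% of the exon bases lay opposite another gene, and *BUB1B* and *CENPA* share 10.2% and 7.08% on the same strand.

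In the limma fit, none of the 53 genes passed the cut-off of the study (log2 fold change beyond 0.5 with an unadjusted p below 0.01). Of the 12773 tested genes, 7.85% passed it in this fit (5.77% higher and 2.08% lower). The study itself applied the cut-off to DESeq2, so these shares are not its own. At a limma adjusted p below 0.05 with no minimum fold, 0 of 53 were called, against 13.0% of all tested genes. edgeR also called 0 of 53, against 13.2% of tested genes, whereas DESeq2 called *NDC80* and *MKI67*, both lower in the KO, against 18.0%. At an unadjusted limma p below 0.05 there were 10 members, 1 higher and 9 lower, which is 18.9% of the list against 29.6% of all tested genes (16.1% higher and 13.5% lower). By direction these were 1.89% of the list higher and 17.0% lower. The share of higher members was thus below that of all tested genes, and the share of lower members was near it. The count of lower members was 6 after rescaling by the 75th percentile, and also 6 with the replicate number as a block. It was 8 with edgeR, 8 with DESeq2, and 12 after the median of neighbouring genes was removed, as described below. The largest log2 fold changes of the list were -0.48 for *MKI67* and 0.29 for *KIF15*, and the smallest adjusted p was 0.056, for *NDC80*. The count of calls depended on the clones. Without clone 1, limma called 9 members lower at an adjusted p below 0.05 (*MAD2L1*, *CENPE*, *NDC80*, *SPC24*, *SPC25*, *ASPM*, *HMMR*, *NCAPG* and *NCAPD2*), of which *HMMR* passed the cut-off of the study. Without clone 2 it called 1 lower (*MKI67*), and without clone 3 it called *BUB3* and *MKI67* lower, both past the cut-off, and *CDC25B* and *KIF15* higher. Without control replicate 1, 2 or 3 it called 0, and the members lower at an unadjusted p below 0.05 were 2, 4 and 2. The share of all tested genes called in each of these refits is not given here, so their counts stand without a background.

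**Figure D1:**
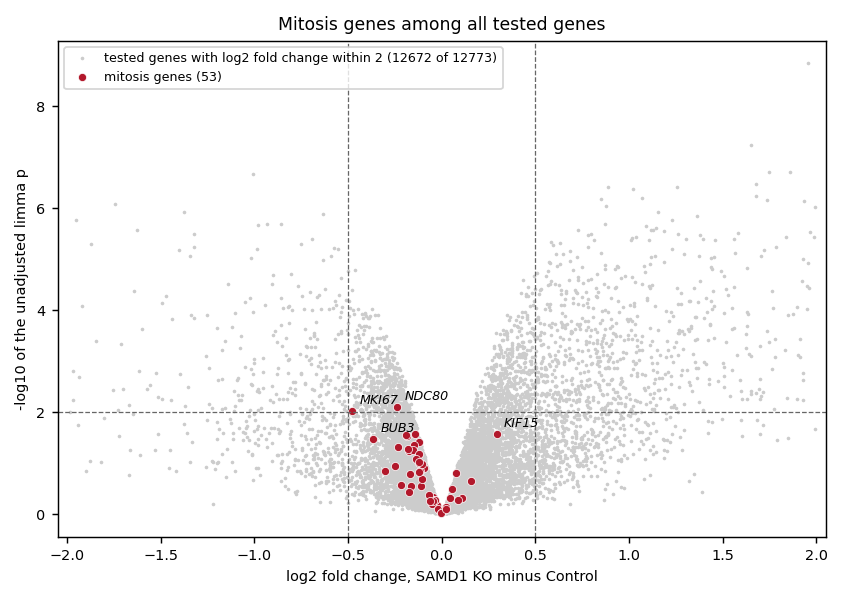
Each grey point is a tested gene, with its log2 fold change (KO minus control) on the x axis and -log10 of the unadjusted limma p on the y axis, and the red points are the 53 mitosis genes. Dashed lines mark a log2 fold change of 0.5 in either direction and an unadjusted p of 0.01, and no red point lies in an outer upper field.

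The precision of these estimates limits what could have been missed in the difference between the group means. limma fits 1 spread to both groups, although the clones varied more than the control libraries did. The intervals may therefore be too narrow for the difference between the means, and they do not bound the change in a single clone. The median half-width of the 95% interval of the log2 fold change was 0.168 (n = 3 against 3). For 46 of the 53 genes the whole interval of this fit lay within 0.5 of 0. Because the intervals may be too narrow, this does not exclude a change of that size. The 7 genes with a wider reach were *CDC25C*, *BUB3*, *PTTG1*, *KIF15*, *KIF20A*, *HMMR* and *MKI67*, and the widest interval had a half-width of 0.431. With 6 libraries, the smallest p of an exact permutation test is 0.1.

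The direction of the small differences was uneven. The log2 fold change was negative for 42 of the 53 members (79.2%) and for 51.2% of all tested genes. The median over the members was -0.10 (quartiles -0.17 and -0.01), beside -0.006 over all tested genes. Expressed by gene, the 3 clones lay below all 3 control libraries for 10 members, *CCNA2*, *CDK1*, *PLK4*, *BUB1B*, *NDC80*, *ANLN*, *NCAPG*, *SMC2*, *FOXM1* and *MKI67*, and above them for 2, *NEK2* and *KIF15*. Groups that did not overlap were found for 37.8% of all tested genes, 19.2% higher and 18.6% lower. The share of the members without overlap was 22.6%. By direction, the 10 lower of 53 were near the share of all tested genes, and the 2 higher were below it.

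**Figure D2:**
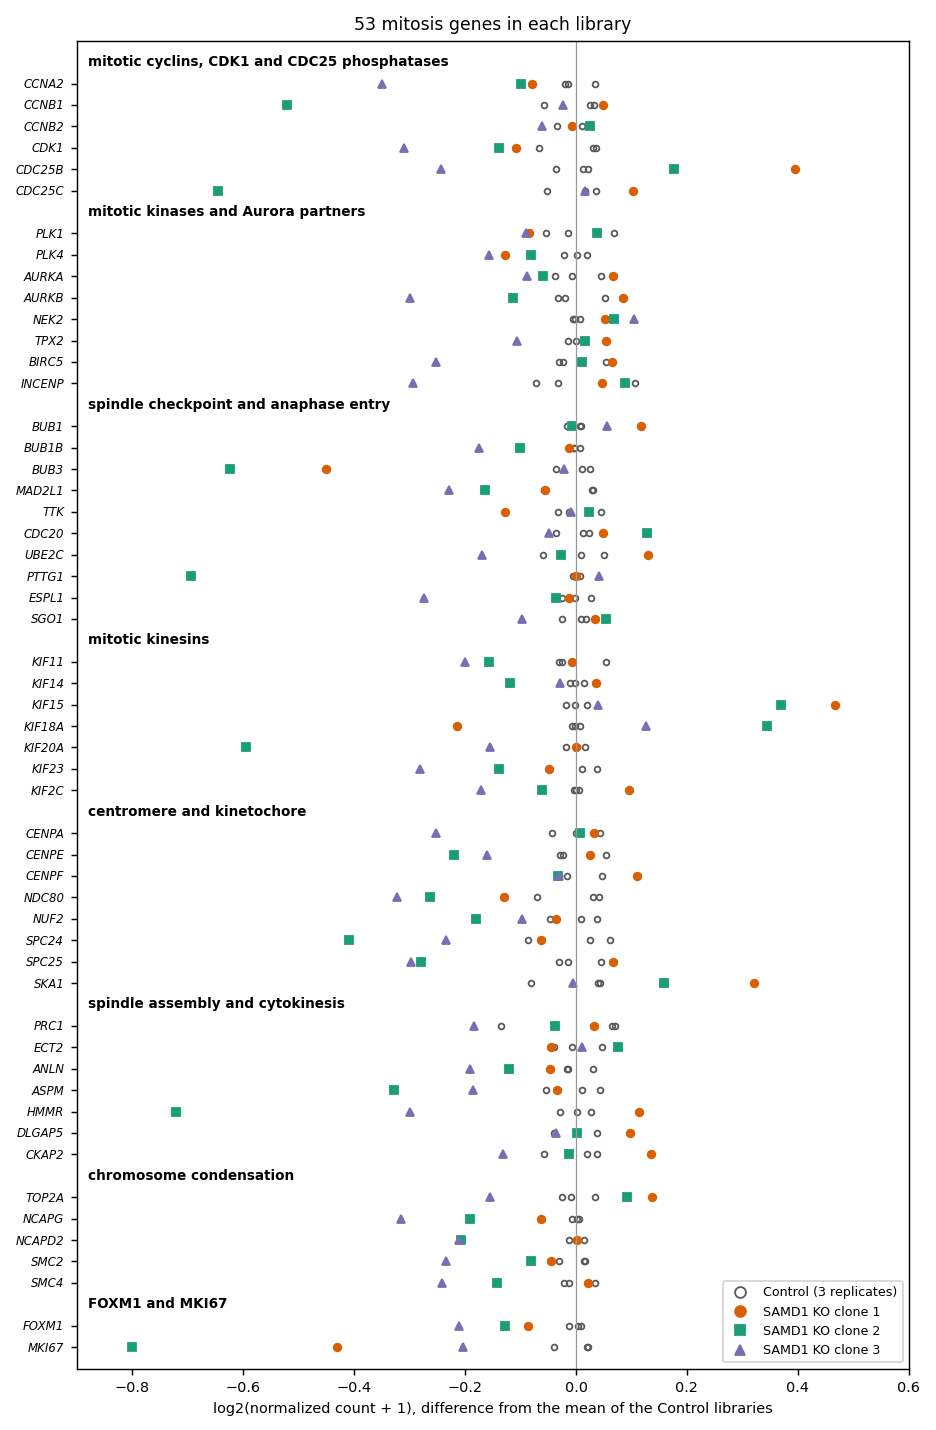
Each row is 1 of the 53 genes, ordered by role, and the x axis gives log2(normalized count + 1) as the difference from the mean of the control libraries. Open circles are the 3 control replicates and filled symbols the 3 KO clones. The clone 3 symbols lie to the left of 0 in 46 rows, and the clone 2 symbols beyond -0.5 belong to 7 genes.

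Among the genes of mitotic entry, *CDK1*, the kinase that drives cells into mitosis, gave 14026, 13115 and 14089 normalized counts in the control libraries and 12744, 12477 and 11077 in clones 1 to 3. All 3 clones lay below the control range, and the log2 fold change was -0.19 ± 0.07 SE (limma adjusted p = 0.123). *CCNA2*, which encodes cyclin A2, gave 7401, 7371 and 7652 against 7075, 6974 and 5864. The gap between the groups was narrow in clones 1 and 2 and wide in clone 3 (log2 fold change -0.18 ± 0.08, adjusted p = 0.185). *CCNB1* gave 25563, 24039 and 25461 against 25865, 17421 and 24622, so that clone 2 alone was low. *CDC25C*, a phosphatase that activates CDK1, gave 1933, 1907 and 1818 against 2024, 1204 and 1906, with clone 2 far below the control range and clone 1 above it. Its paralogue *CDC25B*, named after its values were seen, gave 10128, 10191 and 9788 against 13186, 11345 and 8475, so that clones 1 and 2 were above the control range and clone 3 below it. The 6 genes of this group had a median log2 fold change of -0.17.

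Among the 8 mitotic kinases and Aurora partners, the median log2 fold change was -0.05. *PLK4*, the kinase that starts the duplication of centrioles, gave 4065, 4127 and 4182 in the control libraries and 3774, 3900 and 3698 in the clones. The groups did not overlap, at a log2 fold change of -0.12 ± 0.05 (adjusted p = 0.143). *NEK2*, a kinase of centrosome separation, gave 3112, 3094 and 3087 against 3213, 3248 and 3331, a difference in the other direction of 0.08 ± 0.05 (adjusted p = 0.33). *PLK1*, a kinase needed from mitotic entry to cytokinesis, gave 8564, 9074 and 8338 against 8163, 8886 and 8130, and the groups overlapped. *AURKB*, the kinase of the chromosomal passenger complex, gave 5165, 4919 and 4874 against 5284, 4609 and 4050, spread to both sides of the control range.

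Of the 10 genes of the spindle checkpoint and anaphase entry, *BUB3*, which brings checkpoint kinases to the kinetochore, had the largest difference. It gave 13456, 12898 and 13331 normalized counts in the control libraries and 9673, 8577 and 13031 in clones 1 to 3. Clones 1 and 2 were low and clone 3 lay within the control range, which gave a log2 fold change of -0.37 ± 0.14 (95% interval -0.69 to -0.04, limma adjusted p = 0.133). *MAD2L1*, which encodes the checkpoint protein MAD2, gave 5089, 4790 and 5093 against 4801, 4449 and 4254 (log2 fold change -0.15 ± 0.06, adjusted p = 0.156). *BUB1*, a checkpoint kinase, gave 12510, 12311 and 12529 against 13499, 12386 and 12933, with 2 clones above the control range. *PTTG1*, the inhibitor of separase, gave 6705, 6643 and 6664 against 6672, 4124 and 6866, with clone 2 far below the control range and clone 3 slightly above it. The median of this group was -0.07.

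The 7 mitotic kinesins had a median log2 fold change of -0.05 and included the highest value of the list. *KIF15*, a kinesin that helps to keep the spindle bipolar, gave 3869, 3922 and 3824 normalized counts in the control libraries and 5353, 5002 and 3980 in clones 1 to 3. All clones lay above the control range, clone 3 only just, and the log2 fold change was 0.29 ± 0.11 (95% interval 0.04 to 0.54, adjusted p = 0.117). *KIF23*, a kinesin of the central spindle, gave 7697, 7384 and 7835 against 7387, 6937 and 6281 (-0.16 ± 0.07, adjusted p = 0.181). *KIF20A*, a kinesin of cytokinesis, also named after its values were seen, gave 9369, 9157 and 9286 against 9275, 6137 and 8324, with clone 2 lowest.

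Of the 8 genes of the centromere and kinetochore, *NDC80* had the smallest p of the whole list. NDC80 is a subunit of the complex that binds spindle microtubules at the kinetochore. Its normalized counts were 6417, 5941 and 6369 in the control libraries and 5703, 5198 and 4989 in the clones. The groups did not overlap, with a log2 fold change of -0.24 ± 0.07 (95% interval -0.39 to -0.08, limma adjusted p = 0.056), and DESeq2 called it at an adjusted p of 0.0226. *SPC24*, a partner of NDC80 in the same complex, gave 1139, 1262 and 1230 against 1158, 911 and 1028, with an overlap through clone 1 (-0.24 ± 0.10, adjusted p = 0.165). The other two subunits, *NUF2* and *SPC25*, had log2 fold changes of -0.10 and -0.17. The group median was -0.11.

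The 7 genes of spindle assembly and cytokinesis had a median log2 fold change of -0.06. *HMMR*, a spindle protein and hyaluronan receptor, had the widest range between clones of these genes, with 7692, 7529 and 7822 normalized counts in the control libraries and 8311, 4657 and 6238 in clones 1 to 3. Clone 1 lay above the control range and the other two below it, so that the log2 fold change of -0.30 had an SE of 0.18 (adjusted p = 0.315). *ASPM*, a spindle pole protein, gave 13858, 14482 and 14822 against 14040, 11454 and 12645 (-0.18 ± 0.08, adjusted p = 0.176). *ANLN*, the anillin of the cleavage furrow, gave 16839, 16842 and 17387 against 16468, 15645 and 14909 (-0.12 ± 0.06, adjusted p = 0.198).

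The 5 genes of chromosome condensation had a median of -0.12. *NCAPG*, a subunit of condensin I, gave 11165, 11261 and 11231 normalized counts in the control libraries and 10744, 9831 and 9013 in the clones. No clone reached the control range (-0.19 ± 0.07, adjusted p = 0.121). *NCAPD2*, another condensin I subunit, gave 17076, 17394 and 17220 against 17256, 14919 and 14880, with clone 1 at the control level (-0.14 ± 0.07, adjusted p = 0.228). *TOP2A* gave 38967, 38529 and 40118 against 43079, 41781 and 35204, so that clones 1 and 2 lay above the control range and clone 3 below it. Its log2 fold change was 0.02 ± 0.08 (95% interval -0.17 to 0.22).

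Finally, *MKI67*, which encodes the Ki-67 protein that coats mitotic chromosomes and is the standard proliferation stain of pathology, gave the largest difference of the list. Its normalized counts were 28885, 30099 and 30152 in the control libraries and 22045, 17050 and 25781 in clones 1 to 3. All clones were below the control range, with changes from the control mean of -25.8%, -42.6% and -13.2%. The log2 fold change was -0.48 ± 0.14 (95% interval -0.80 to -0.16), which limma did not call (unadjusted p = 0.00963, adjusted p = 0.063) and DESeq2 called (adjusted p = 0.0109). *FOXM1*, the transcription factor of the G2 and M phase wave, gave 10695, 10532 and 10653 against 10013, 9724 and 9178. The groups did not overlap, and the log2 fold change was -0.14 ± 0.05 (adjusted p = 0.119).

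**Figure D3:**
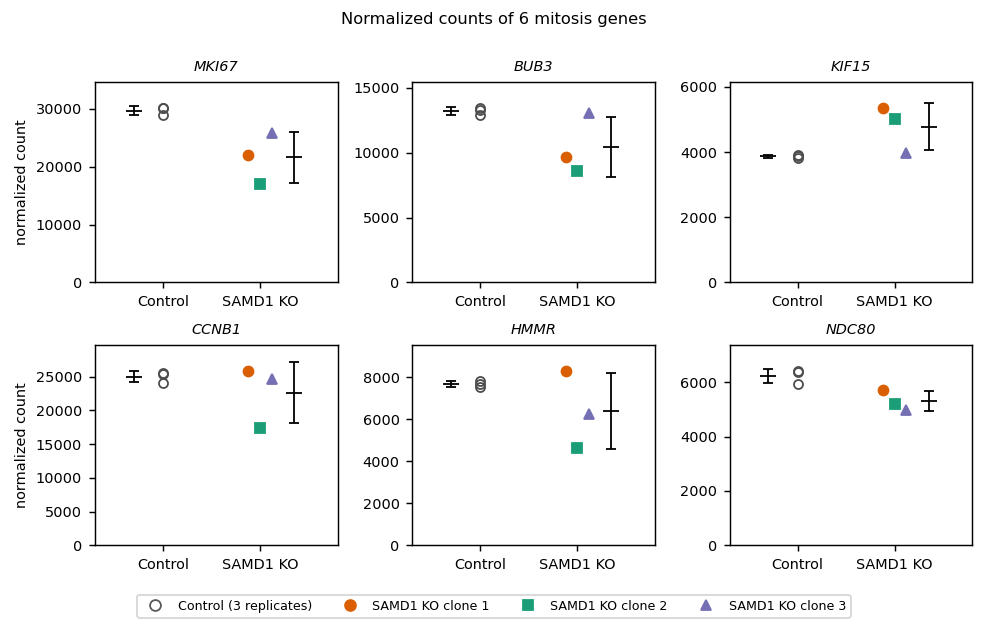
Normalized counts of 6 mitosis genes are shown by library on axes that start at 0, with the mean and SD of each group (n = 3) as a bar beside the points. The 3 control libraries are tightly grouped for each gene, whereas the KO clones spread, with clone 2 lowest for *MKI67*, *BUB3*, *CCNB1* and *HMMR* and clone 3 lowest for *KIF15* and *NDC80*.

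The 3 clones differed from each other more than the control libraries did. The coefficient of variation of a member had a median of 2.41% among the control libraries and 8.78% among the clones, with a maximum of 28.6% for *HMMR*. Relative to the mean of the control libraries, the median log2 difference over the 53 genes was 0.02 in clone 1, -0.08 in clone 2 and -0.17 in clone 3, whereas the median of all tested genes was between -0.004 and 0.001 in each. The control libraries had member medians between -0.02 and 0.01. Clone 1 was below all control libraries for 15 members and above them for 22, clone 2 below for 32 and above for 11, and clone 3 below for 41 and above for 5. Of all tested genes, between 39.8% and 41.3% lay below and between 39.3% and 41.0% above the control libraries, depending on the clone. Clone 3 had the lowest value of the 3 clones for 35 members and clone 1 the highest for 40. With 1 library per clone, these differences between clones have no test.

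In clone 3 the median was negative in all 8 role groups. In that clone the group medians were -0.15 for cyclins, CDK1 and the CDC25 phosphatases, -0.13 for the mitotic kinases, -0.07 for checkpoint genes, -0.16 for kinesins, -0.20 for centromere and kinetochore genes, -0.18 for spindle and cytokinesis genes, -0.23 for condensation genes and -0.21 for *FOXM1* and *MKI67*. All 8 kinetochore genes and all 5 condensation genes had a negative difference. In clone 1 the medians lay between -0.006 and 0.05, except for *FOXM1* and *MKI67*, whose median of -0.26 in clone 1 and -0.46 in clone 2 was lower than in clone 3. No member differed from the control mean by more than 0.5 in clone 3, and the lowest was *CCNA2* at -0.35.

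Clone 2 held the largest differences of the list. Of the 53 genes, 7 differed from the control mean by more than 0.5 on the log2 scale in clone 2, and 0 did so in clones 1 and 3. Of all tested genes, 16.7%, 20.2% and 16.2% did so in clones 1 to 3, so large differences were not more frequent among the members. These 7 genes lay in a few places of the genome. The list has 5 genes on chromosome 5, *CCNB1*, *CDC25C*, *KIF20A*, *PTTG1* and *HMMR*, and all 5 were between -0.72 and -0.52 in clone 2 (median -0.65). The other 586 tested genes of chromosome 5 had a median of -0.52 in clone 2, where 86.9% of them were below the control mean, and medians of -0.04 and -0.01 in clones 1 and 3. In clones 1 and 3 the 5 mitosis genes had medians of 0.05 and -0.02. The cause of the low level along chromosome 5 in clone 2 was not tested.

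The other two of these 7 genes were *BUB3* and *MKI67*, which lie near each other on chromosome 10 (GRCh38, chr10:123154402-123170467 on the plus strand and chr10:128096659-128126423 on the minus strand). Each gene was set beside the median of the 40 tested genes nearest to it, the neighbours. The neighbours of *BUB3* stood at -0.40, -0.39 and 0.25 in clones 1 to 3, and *BUB3* at -0.45, -0.62 and -0.02. The neighbours of *MKI67* stood at -0.40, -0.34 and 0.23, and *MKI67* at -0.43, -0.80 and -0.20. *MKI67* was thus at the level of its neighbours in clone 1 and differed from them by -0.46 and -0.44 in clones 2 and 3. After the neighbours' median was taken from each library, its log2 fold change was -0.31 (limma adjusted p = 0.098).

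*KIF15*, on chromosome 3 (GRCh38, chr3:44761721-44873376, plus strand), stood at 0.47, 0.37 and 0.04 in clones 1 to 3, and its neighbours at 0.28, 0.25 and -0.04. Its log2 fold change was 0.13 after removal of the neighbours' median. *CDC25B*, on chromosome 20, stood at 0.39, 0.18 and -0.24, beside neighbours at 0.33, 0.23 and -0.11. In contrast, the neighbours of *NDC80* on chromosome 18 differed little from the control level, and its log2 fold change of -0.21 after their removal was called by limma (adjusted p = 0.0396).

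**Figure D4:**
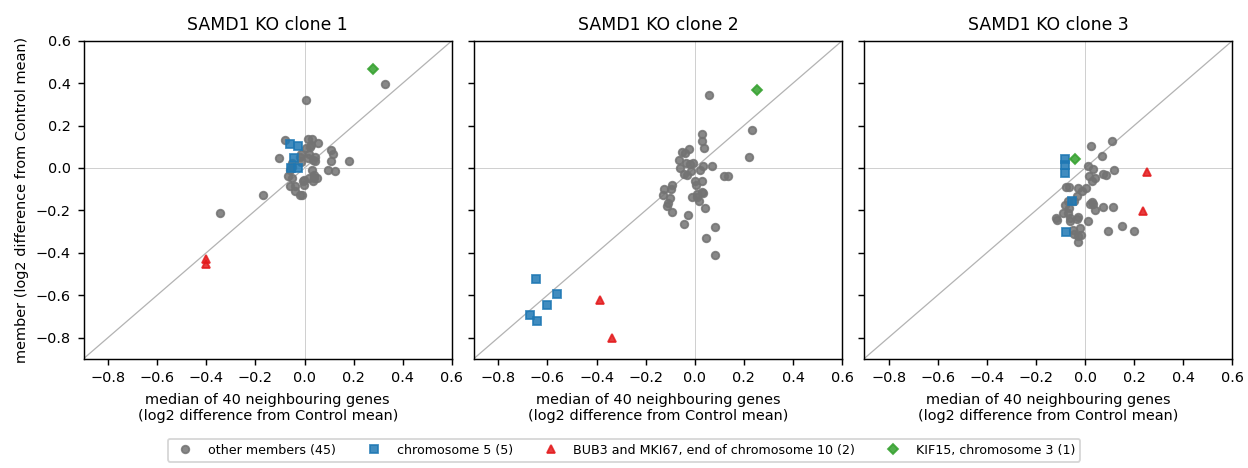
Each point is 1 of the 53 genes, with the median of its 40 nearest tested genes on the x axis and its own value on the y axis, both as log2 differences of the clone from the control mean, and the diagonal marks equal values. In clones 1 and 2 the points with neighbours far from 0 lie on the same side of 0 as those neighbours, other points such as *SPC24* in clone 2 and *SKA1* in clone 1 are far from 0 with neighbours near 0, and the 5 genes of chromosome 5 form a separate group at the lower left in clone 2, whereas in clone 3 the points lie mostly below 0 with neighbours near 0.

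Over the 53 genes, Pearson's r between a member and the median of its neighbours was 0.765 in clone 1, 0.803 in clone 2 and 0.154 in clone 3. Without the 5 genes of chromosome 5 (n = 48) it was 0.785, 0.633 and 0.237, and Spearman's rho over all 53 was 0.402, 0.488 and 0.149. These values describe genes of single libraries, and neighbours of nearby members overlap. Over 12675 tested genes with a position, r was 0.253, 0.256 and 0.191. After the neighbours' median was removed, the number of members beyond 0.5 was 0 in each clone, and the member medians were 0.03, -0.04 and -0.13. The number beyond 0.25 went from 5 to 1 in clone 1 and from 13 to 5 in clone 2, and from 12 to 13 in clone 3. Before removal, 35.7%, 42.0% and 36.9% of all tested genes lay beyond 0.25 in clones 1 to 3. The share of all tested genes after removal is not given here, so the counts after removal stand without a background. In the control libraries the neighbours' medians stayed between -0.05 and 0.04.

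The promoters of these genes were also read for the letters of the elements of the G2 and M phase wave, in 300-base windows that end 50 bases after the gene start (RefSeq, GRCh38.p14). A window was found for 46 of the 53 members. The CHR letters TTTGAA were present on either strand in 32 of 46 windows (69.6%) and in 9.31% of the windows of tested genes. CCAAT was present on either strand in 31 of 46 (67.4%) against 36.4%, and both in 22 of 46 (47.8%) against 3.94%. The GCGC letters of GC-rich promoters were present in 45 of 46 (97.8%) against 85.2%, while their median number per window was 3 in both sets. A match of letters does not show that a protein binds there. The letters were read only in these windows, so elements near another start of a gene were not looked for. Their absence from a window, as for *CDC25C*, therefore does not show that the gene lacks the elements. Shown here are the 100 bases before the start of 5 members, written 5′ to 3′ on the strand of the gene, to set the largest difference, a CCAAT upstream of a CHR, a CHR without CCAAT, a promoter with CCAAT on both sides of the CHR, and a stretch with neither. Capitals mark both elements on either strand, so that a CCAAT of the other strand is read as ATTGG, and in *MKI67* the second CHR overlaps the second CCAAT.
MKI67, chr10:128126424-128126523, minus strand: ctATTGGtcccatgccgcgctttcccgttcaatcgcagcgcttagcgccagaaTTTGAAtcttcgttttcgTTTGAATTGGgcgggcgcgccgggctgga
ESPL1, chr12:53268199-53268298, plus strand: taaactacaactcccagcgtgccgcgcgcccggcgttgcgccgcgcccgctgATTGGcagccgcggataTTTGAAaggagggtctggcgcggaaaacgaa
NCAPG, chr4:17810879-17810978, plus strand: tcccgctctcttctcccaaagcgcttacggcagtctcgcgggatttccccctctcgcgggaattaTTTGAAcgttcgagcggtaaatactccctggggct
CDC20, chr1:43358881-43358980, plus strand: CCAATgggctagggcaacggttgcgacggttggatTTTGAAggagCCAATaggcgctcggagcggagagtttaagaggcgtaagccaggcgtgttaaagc
CDC25C, chr5:138338356-138338455, minus strand: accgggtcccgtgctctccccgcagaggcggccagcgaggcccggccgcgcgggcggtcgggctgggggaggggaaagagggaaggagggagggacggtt

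The 32 members whose window held TTTGAA had a median log2 fold change of -0.11, and the 14 whose window did not hold it, *CDC25C* among them, -0.11. At an adjusted p below 0.05, limma called 0 in both sets. By clone, the medians with the letters were -0.01, -0.09 and -0.19, and without them 0.05, -0.11 and -0.14. The 382 other tested genes whose windows held both TTTGAA and CCAAT had a median of -0.04, and the 9291 without TTTGAA had -0.004.

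The remaining genes of the mitotic machinery were described from 6 further lists of 124 genes, of which 122 were tested. Their median log2 fold change was -0.08, with 98 of 122 negative (80.3%). At a limma adjusted p below 0.05, 2 were higher and 9 lower, against 8.32% and 4.7% of all tested genes, and 0 passed the cut-off of the study. With control replicate 1, 2 or 3 left out, 0 were higher and 2 lower, *E2F3* and *ANAPC13*, and without clone 1 there were 3 higher and 22 lower. For these refits, too, the share of all tested genes is not given here. The list of 31 other kinetochore and centromere genes had a median of -0.14 with 29 negative, and 2 of them fell. *SKA2*, a subunit of the SKA complex, gave 5632, 5412 and 5530 normalized counts in the control libraries and 4861, 4701 and 4457 in the clones (-0.24 ± 0.05, adjusted p = 0.027). *CENPL*, a subunit of the inner kinetochore, fell by 0.25 (adjusted p = 0.0486). In the list of 26 tested spindle, kinesin and cytokinesis genes, 3 fell, among them *FAM83D* (-0.27 ± 0.06, adjusted p = 0.0361) and *KIF20B* (-0.27 ± 0.07, adjusted p = 0.0419), and 1 rose. *CENPL* and *KIF20B* were not called without clone 2 or without clone 3 (adjusted p from 0.0664 to 0.0775).

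2 subunits of the anaphase-promoting complex, the ubiquitin ligase that ends mitosis, passed in opposite directions among 17 tested. Of all tested genes, 13.0% passed at a limma adjusted p below 0.05. *ANAPC13* fell, with 1982, 2027 and 1950 normalized counts in the control libraries and 1557, 1476 and 1384 in the clones (-0.43 ± 0.06, limma adjusted p = 0.00665). *ANAPC11*, its RING subunit, rose, with 1757, 1867 and 1766 against 2238, 2241 and 2164 (0.30 ± 0.06, adjusted p = 0.0142). For both genes the clones lay close together and apart from the control libraries. Of 17 condensin and cohesin genes and 11 tested regulators of mitotic entry, 0 passed at this threshold. At an unadjusted p below 0.05 there were 3 and 0, beside 29.6% of all tested genes. The leading genes were *NCAPG2* (-0.19, adjusted p = 0.0631) and *CDCA5* (-0.22, adjusted p = 0.098), and *CCNF* (-0.17, adjusted p = 0.207) and *PBK* (-0.17, adjusted p = 0.274).

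Of 20 genes of the MuvB, MYB, RB and E2F regulators, 3 fell and 0 rose at a limma adjusted p below 0.05. Of all tested genes, 4.7% fell and 8.32% rose. *E2F3*, an activator of S phase genes, gave 3409, 3295 and 3417 normalized counts in the control libraries and 2451, 2650 and 2619 in the clones (-0.39 ± 0.05, limma adjusted p = 0.00523). *MYBL2*, which encodes the B-MYB partner of MuvB, gave 9095, 9281 and 8723 against 7943, 7585 and 6876 (-0.28 ± 0.07, adjusted p = 0.0356). In both genes all clones were below the control range, while the medians of their neighbours lay between -0.06 and 0.14. *E2F4*, the E2F of the DREAM complex, also fell (-0.31 ± 0.08, adjusted p = 0.0383), with neighbours at -0.21, -0.27 and 0.03, and was not called without clone 1 or without clone 2 (adjusted p = 0.0556 and 0.0625).

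DNA replication genes, which are transcribed earlier in the cycle, served as a second proliferation list. Their median over 32 genes was -0.09, with 24 negative, close to the value of the mitosis genes, and the difference between the lists was not tested. 1 gene rose and 1 fell at a limma adjusted p below 0.05, beside 8.32% and 4.7% of all tested genes. Without any 1 of the control libraries 0 were called, and without clone 1 the count was 1 higher and 9 lower, again with no share of all tested genes for the refits. *POLA1*, the catalytic subunit of the primase-polymerase, gave 3645, 3501 and 3702 against 5613, 4563 and 4659 (0.45 ± 0.08, adjusted p = 0.0166), with neighbours between 0.41 and 0.47 in the 3 clones, and an adjusted p of 0.956 once their median was removed. *GINS1*, a subunit of the replicative helicase, gave 2805, 2714 and 2857 against 2475, 2327 and 2054 (-0.29 ± 0.08, adjusted p = 0.048), with neighbours between -0.03 and 0.003. limma did not call *GINS1* without clone 2 (adjusted p = 0.0641), after rescaling (0.0511) or with the replicate number as a block (0.0763).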

How the data were processed

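RNA-seq libraries (TruSeq Stranded mRNA) of 3 control and 3 *SAMD1* KO samples were analysed. The authors aligned reads to the GenCode 43 transcriptome with RNA-STAR, counted them per gene with featureCounts (hg38) and normalized them with DESeq2, and the strand setting of the counting is not given in the sources used here. The deposited signal values are counts divided by 1 size factor per library, and dividing by the step of the library gave whole reads for 100% of them (tolerance 0.02). A second deposited table holds the comparison of the authors (score columns, log2 fold changes and p-values) and was not used. No column of the expression table was left unused (0 columns).

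Samples were grouped by their labels. Expression was compared with limma 3.58.1 (R 4.3.3, lmFit and eBayes with trend) on log2(normalized count + 1), a scale that understates changes of low genes, for the 12773 genes with a mean of at least 10, and p-values were two-sided and adjusted by Benjamini-Hochberg over these genes. Fold changes are given with the SE of the fit. Depth was 35589477 to 45172216 reads, so the number of libraries and not counting limits the precision, and p-values measure the spread between these libraries. The members and gene lists were chosen with earlier results of these data known, so their counts are descriptions. Values by library are given for the 2 members of each role group with the smallest p, for *CCNB1*, *CDK1*, *PLK1*, *AURKB*, *BUB1*, *TOP2A* and *MKI67*, and for the 3 with the widest range between clones; in other lists the 2 with the smallest p are named. *E2F4* and further members named in counts were chosen after their values were seen.

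Positions are from GENCODE 44 (GRCh38), 183 symbols being matched by an older name. Neighbours are the 40 nearest tested genes on the same chromosome. Same-numbered libraries correlated by 0.039, 0.134 and 0.032 in their deviations from the group means, so the numbers were not used as pairs. The fits were tested on simulated data. Alternatives were another pseudocount or filter, rescaling, a replicate block, each library left out, edgeR 4.0.16 and DESeq2 1.42.0 on the recovered reads, other call rules and removal of the neighbours' median. The counts at an unadjusted p and the same alternatives for the other lists were added after seeing the data. 1 leukocyte marker is not reported here.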

Additional observations from a re-analysis of the deposited data

How the results depend on the processing

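The median log2 fold change of the 53 genes stayed between -0.14 and -0.05 over the fits that left out 1 library, and its sign and that of *SAMD1* held under each alternative run. Members called at the cut-off of the study numbered 0, from 0 to 2 with 1 library left out, and 2 with an unadjusted p below 0.01 and no minimum fold. Members called higher at an adjusted p below 0.05 numbered 0, and from 0 to 2 with 1 library left out. Members called lower numbered 0, with 2 by DESeq2, 1 after removal of the neighbours' median, and from 0 to 9 with 1 library left out. At an unadjusted p below 0.05, 1 member was higher (0 to 2 with 1 library left out) and 9 were lower (2 to 22). After removal of the neighbours' median, 12 were lower. Counts with 1 library left out or after this removal have no share of all tested genes beside them here. The sign of the log2 fold change turned for 22 of the 53 members under at least 1 alternative, for 10 after removal of the neighbours' median and for 1 to 10 with 1 library left out. Of the members chosen by rule, 5 turned. After removal of the neighbours' median the log2 fold change was 0.0951 for *CCNB1*, 0.0597 for *CDC25C*, 0.0518 for *PTTG1* and 0.0172 for *PLK1*. With 1 library left out it ran from -0.272 to 0.0129 for *CCNB1*, from -0.315 to 0.0591 for *CDC25C* and from -0.347 to 0.0208 for *PTTG1*, positive without clone 2 only, and from -0.0315 to 0.114 for *TOP2A*, negative without clone 1 and without clone 2 only. The cause of these changes was not tested. With the replicate number as a block, 0 members were called and the counts at an unadjusted p were 1 higher and 6 lower, and in the other lists 1 was higher and 3 lower in place of 2 and 9. The numbers did not pair the libraries, and not every library correlated best with its own number. Depth was not the limit, since each member had at least 222 reads in every library, whereas 3 libraries a group limit the intervals.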
